A study of Mus musculus with 24 samples.

Results

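Skeletal muscle contractile genes were examined in carcinogen-induced mammary tumors of mice. The set holds 40 genes, chosen by symbol for their place in the contractile apparatus of striated muscle, among 30175 gene symbols on the array. They are read by 56 of its 39429 probes. All 40 passed the filter on low signal that left 20938 genes for testing, and each gene was read from its brightest probe. RNA from 24 tumors was compared on 2-color arrays with Universal Mouse Reference RNA, a mix of RNA from 11 mouse cell lines. All tumors came from female BALB/c mice given the carcinogen 7,12-dimethylbenz[a]anthracene (DMBA), so no group lacks the carcinogen. The diets were a low-fat diet (LFD), a diet high in animal fat (HFD), and diets switched from low to high fat (LFD-HFD) or from high to low fat (HFD-LFD) when the mice reached adulthood. There were 5 LFD tumors, 4 LFD-HFD tumors, 9 HFD tumors and 6 HFD-LFD tumors. Tumors were also labeled by onset. All LFD and LFD-HFD tumors were late, the HFD tumors were 3 early and 6 late, and the HFD-LFD tumors were 3 early and 3 late, giving 6 early and 18 late tumors. No age is given for single mice in the labels, each tumor is 1 array, and some labels share a number (MSU_59a and MSU_59b, MSU_62a and MSU_62b) with no meaning given for the letter, so the p-values describe the spread between these arrays.

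Striated muscle contracts when thick filaments of myosin slide along thin filaments of actin within sarcomeres, the repeating units bounded by Z-discs. A nerve impulse opens a voltage sensor in the muscle membrane, calcium leaves its store through the ryanodine receptor, and calcium bound to troponin C lets myosin reach actin. Fast and slow fibers build the same structure from different gene copies. Fast fibers use myosin heavy chains Myh1, Myh2 and Myh4 with fast troponins, and slow fibers use Myh7 with slow troponins and the light chains Myl2 and Myl3, which the heart also uses. The mammary gland holds no skeletal muscle fibers of its own, although the glands of mice lie close to muscle of the body wall and skin. By role the set has 11 thick filament genes, 9 thin filament genes, 10 genes of the Z-disc and scaffold, 5 genes of calcium handling and 5 of energy metabolism. By fiber type 15 are used mainly in fast fibers, 7 mainly in slow fibers and 18 in both.

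The probes that carry the main findings are 60 bases long. Of the 40 probes used, 31 lie in 1 unbroken stretch of the genome and 9 cross an intron. No pair of them shares a run of more than 13 bases, and the probes of Myh1 and Myh4, which are close copies, share at most 10. Probe sequences are shown for skeletal actin and muscle creatine kinase, general markers of the tissue, for the fast-fiber actinin Actn3, and for the slow troponin C gene Tnnc1, each at its mm9 position and 5′ to 3′ on the gene's strand.
Acta1, chr8:126416197-126416256, minus strand: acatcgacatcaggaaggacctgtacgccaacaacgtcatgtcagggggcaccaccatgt
Ckm, chr7:20002222-20004829, plus strand: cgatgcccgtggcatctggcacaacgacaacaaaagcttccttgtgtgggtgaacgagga
Actn3, chr19:4861727-4862212, minus strand: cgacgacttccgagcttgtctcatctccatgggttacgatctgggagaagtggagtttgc
Tnnc1, chr14:32023360-32023776, plus strand: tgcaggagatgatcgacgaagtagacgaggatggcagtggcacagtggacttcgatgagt
The Ckm, Actn3 and Tnnc1 probes span more of the genome than their own length, so each crosses an intron, and the Acta1 probe does not.

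Values are log2 ratios of the tumor channel (Cy5, as the labels give it) over the reference channel (Cy3). The study's methods place the reference in Cy5, and the direction used here therefore opposes that text. The channel that holds 1 common reference should vary less from array to array. Over 17732 probes measured on all arrays the median SD of the Cy5 signal was 0.623 on the log2 scale and that of Cy3 was 0.269, and among 25 member probes the medians were 0.929 and 0.244, with Cy5 more variable for all 25. On 7 arrays, all of late tumors, rows of spots had lost Cy5 signal (14.5% to 18.3% of spots), and those spots were treated as missing, so 25 members were measured on 24 arrays and the others on 20 to 23. No member spot was saturated. The tissue label was checked against epithelial genes: probes of the keratins Krt8, Krt18, Krt19, Krt5 and Krt14 were well above background in every tumor in which they were measured. The median log2 ratio of Krt8 was 2.24, with a range from -4.74 to 3.603 over 24 tumors.

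The reference mix was brighter than the tumors for these genes. The median log2 ratio was below 0 for 40 of 40 members, and for 37 of 40 it was below -3, a level that 3.85% of all tested genes reached. The median over members was -4.39, against -0.02 over all genes. The level of the tumors nevertheless could be measured for most members: 36 of 40 were well above background on every array that measured them. The exceptions were Smpx (12 of 21 arrays), Xirp2 (12 of 20), Myot (19 of 20) and Mylpf (20 of 24), whose lowest values are therefore bounds. Members also varied more between tumors than other genes did. The median SD over tumors was 0.851 for members and 0.389 for all genes, and 39 of 40 members exceeded the median of all genes.

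A few tumors stood apart from the rest. The 3 highest values of a member were found in the same 3 tumors, MSU_122a (LFD, late), MSU_26 (HFD-LFD, late) and MSU_163 (HFD, early), for 21 of 40 members, and 37 of 40 members were highest in 1 of these 3. MSU_122a held the highest value of 22 members and MSU_26 that of 14. In MSU_122a and in MSU_26 all 40 members lay above their median over tumors, by more than 1 log2 unit for 34 and 29 of them, and in MSU_163 the counts were 32 and 20. These 3 tumors belonged to 3 diet groups and both onset labels, and were on 3 different slides. The lowest were MSU_97 and MSU_768, both early HFD tumors on the same slide as MSU_163, in which 21 and 16 members lay more than 1 log2 unit below their median. The arrays measure bulk tissue, in which fewer muscle cells and less muscle RNA per cell cannot be told apart.

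**Figure D1:**
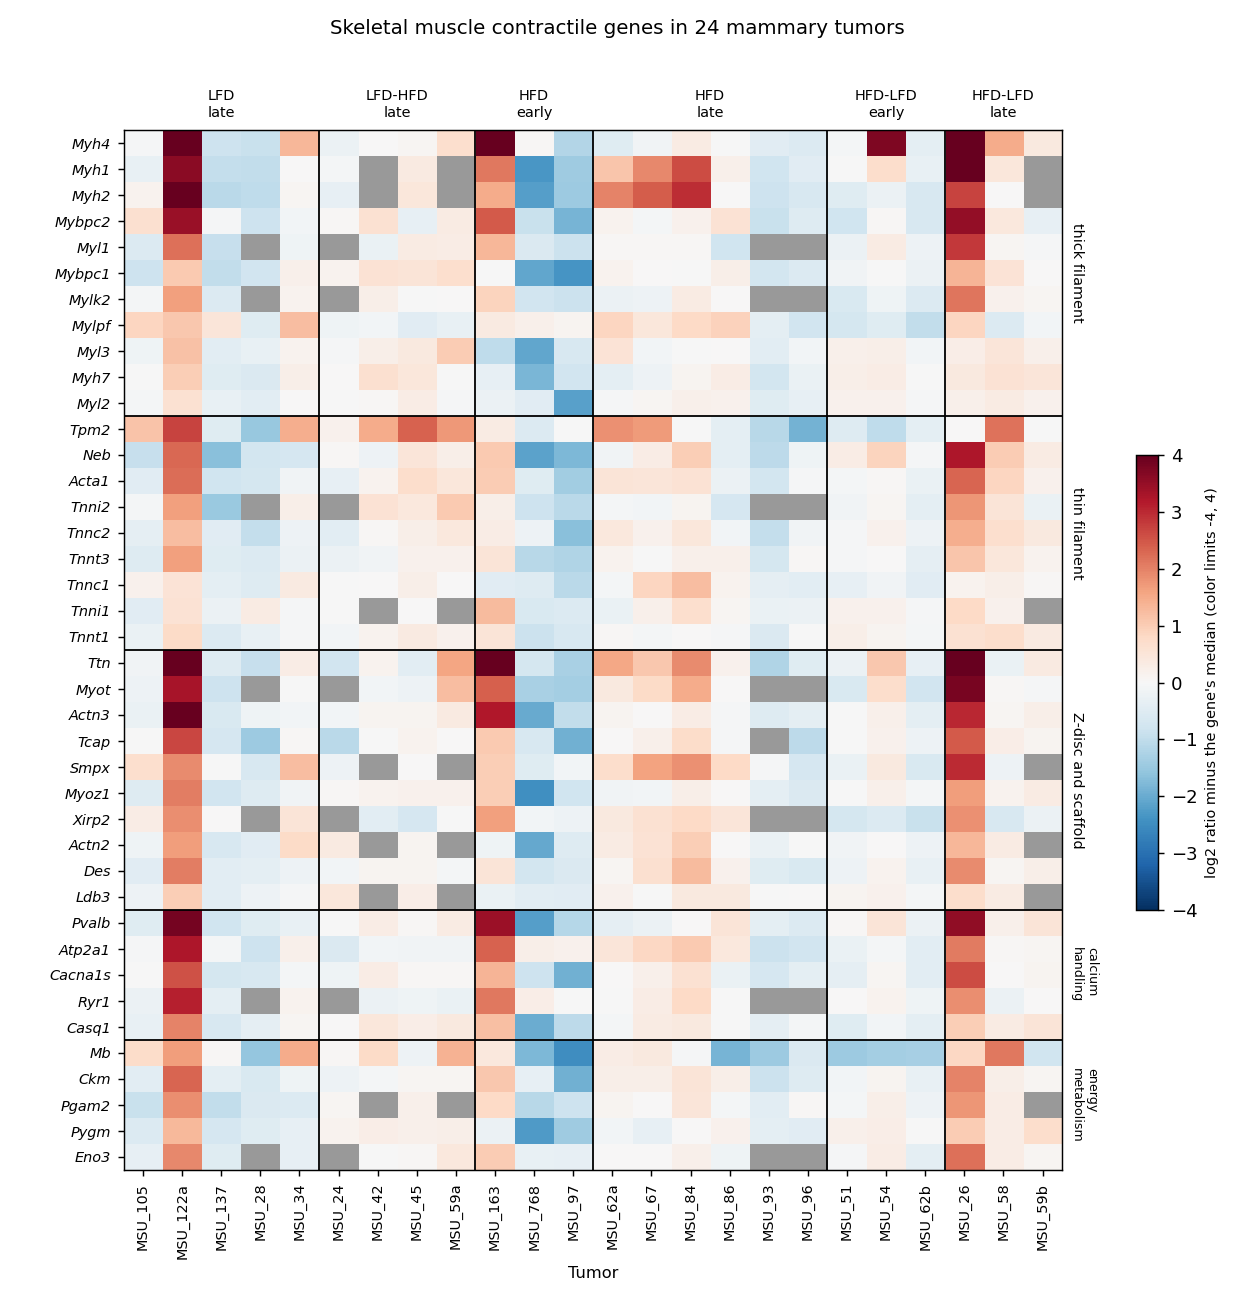
Heat map of the 40 genes (rows, grouped by role) in 24 tumors (columns, grouped by diet and onset), colored by the log2 ratio minus the gene's median over tumors, with gray for missing spots. The columns of MSU_122a, MSU_26 and MSU_163 are red for most rows, and those of MSU_768 and MSU_97 are mostly blue.

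The average over members of these centered log2 values summarizes each tumor. It was 2.09 in MSU_122a, 1.85 in MSU_26 and 1.01 in MSU_163, and the next was MSU_84, a late HFD tumor, at 0.492. Each of the first 3 came from a group whose other tumors were lower. The LFD tumors ran from -0.789 to 2.09 with a median of -0.292, the late HFD-LFD tumors from -0.004 to 1.85 with a median of 0.213, and the early HFD tumors from -1.20 to 1.01 with a median of -1.19. The other groups were narrow. The LFD-HFD tumors lay between -0.248 and 0.251, the late HFD tumors between -0.759 and 0.492, and the early HFD-LFD tumors between -0.503 and 0.039.

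Among thick filament genes, the fast myosin heavy chains varied most. Myh4, the heavy chain of the fastest fibers, had the largest SD of any member at 2.40. Among LFD tumors its log2 ratio was -3.75, 2.93, -4.53, -4.59 and -2.37 in MSU_105, MSU_122a, MSU_137, MSU_28 and MSU_34. Only MSU_122a of these was above the reference. Among LFD-HFD tumors it was -3.94, -3.69, -3.60 and -3.02 in MSU_24, MSU_42, MSU_45 and MSU_59a. In early HFD tumors it was 2.77 in MSU_163, -3.66 in MSU_768 and -4.85 in MSU_97, and in the 6 late HFD tumors it ran from -4.26 to -3.35 with a median of -3.996. A single early HFD tumor was thus high and every late HFD tumor was low. In early HFD-LFD tumors it was -3.77 in MSU_51, 0.04 in MSU_54 and -4.10 in MSU_62b, and in late HFD-LFD tumors 3.06 in MSU_26, -2.22 in MSU_58 and -3.32 in MSU_59b. Relative to its median over 24 tumors, Myh4 was 99-fold higher in MSU_122a, 108-fold in MSU_26 and 88.5-fold in MSU_163.

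MSU_54 was high for Myh4 without the rest of the fast set. Its Myh4 was 3.73 log2 units above the gene's median, while Myh1, the heavy chain of another fast fiber class, was 0.70 above and Pvalb, a calcium buffer of the fastest fibers, was 0.50 above. A second departure involved Myh1 and Myh2, the latter being the heavy chain of the more oxidative fast fibers. The late HFD tumors MSU_84, MSU_67 and MSU_62a had Myh2 log2 ratios of -1.43, -1.98 and -2.41, against -2.90 in MSU_163. Their Myh4 ratios were -3.35, -3.83 and -4.17, of which that of MSU_84 was the highest of the late HFD tumors and all were far below those of MSU_122a, MSU_26 and MSU_163. These 3 tumors were hybridized on 1 slide, whose other array, MSU_86, also a late HFD tumor, had a Myh2 ratio of -4.39. Myh1 ranked them likewise, at -2.14, -2.83 and -3.65, with -4.54 in MSU_86.

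Titin, the molecular spring that ties myosin to the Z-disc, had the next largest SD after Myh4, at 1.73. Ttn was -2.06 in MSU_122a, -2.60 in MSU_26 and -2.94 in MSU_163, and ran from -8.30 in MSU_97 to -5.10 in MSU_84 in the others, so the gap between MSU_163 and the next tumor exceeded 2 log2 units. The large spread of Ttn held for the probe used. Another of its probes that passed the filter had an SD of 0.951 and correlated with the first at r = 0.59 over 24 arrays. The slow heavy chain and the slow light chains varied less. Myh7, the slow heavy chain, was highest in MSU_122a at -4.57 and lowest in MSU_768 at -7.36, and MSU_163 at -5.89 lay below its median. The slow light chain Myl3 was also low in MSU_163, at -5.18, where only MSU_768 at -6.23 was lower. Myl2, the slow regulatory light chain, ran from -6.49 in MSU_97 to -3.74 in MSU_122a with an SD of 0.515. Mylpf, the fast regulatory light chain, was highest in MSU_34 at -2.44 and had the lowest correlation with the average of the other members, r = 0.43 over 24 arrays. Its probe was well above background on only 20 of these 24 arrays, so the correlation includes values near background.

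**Figure D2:**
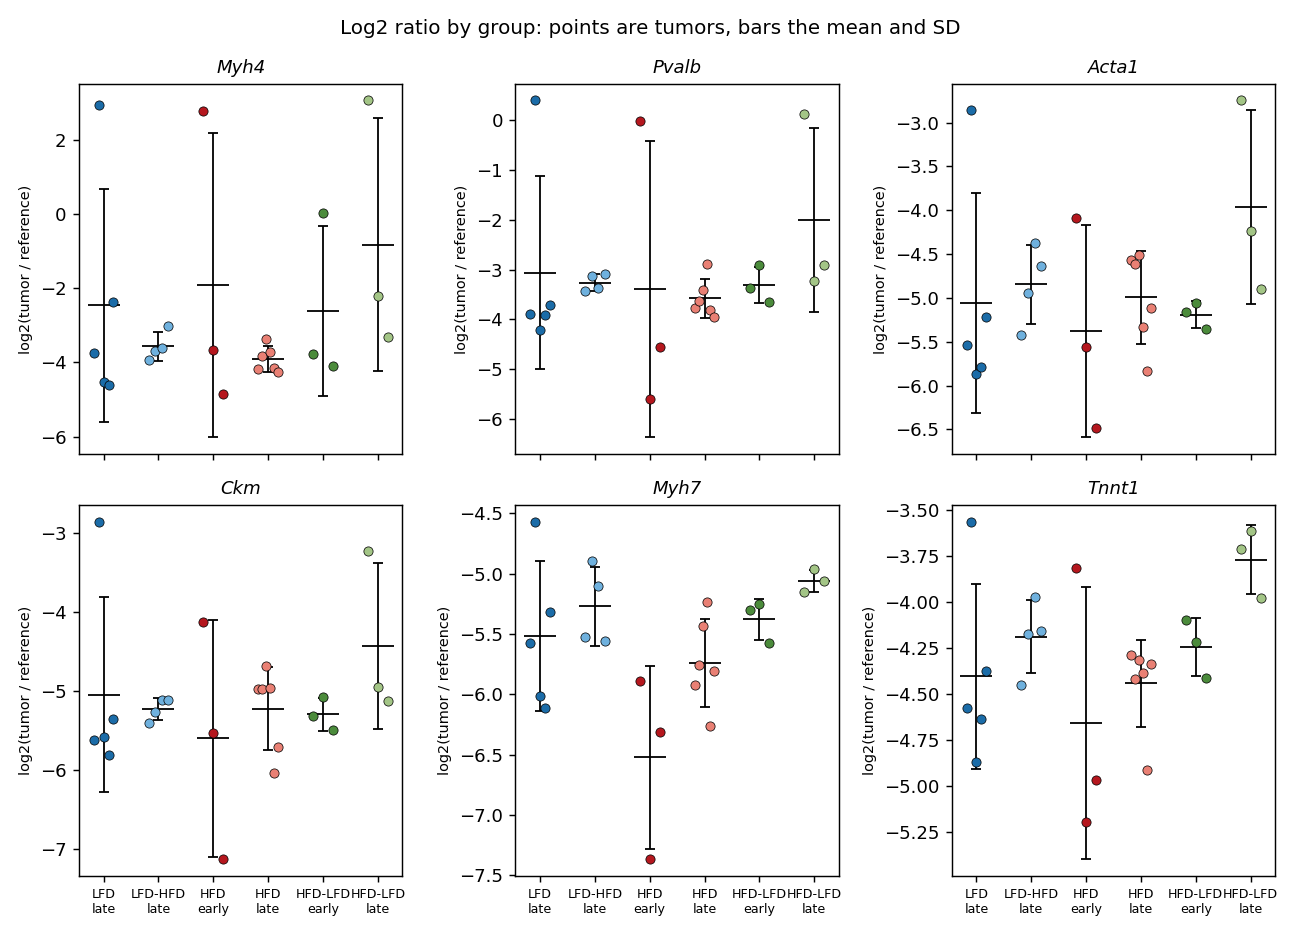
Log2 ratio of tumor over reference (vertical axis) for Myh4, Pvalb, Acta1, Ckm, Myh7 and Tnnt1 in each of 24 tumors (points) by diet and onset group, with the group mean and SD. Myh4 shows 3 tumors near 3 and most others below -2, whereas Tnnt1 lies between -5.19 and -3.56 throughout.

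Among thin filament genes, Acta1 and the fast troponins were highest in MSU_122a and MSU_26, with smaller steps than the fast heavy chains. Neb, another thin filament gene, varied more than these, with an SD of 1.21. Acta1, skeletal actin, was -2.75 in MSU_26, -2.86 in MSU_122a and -4.08 in MSU_163, and from -6.49 in MSU_97 to -4.24 in MSU_58 in the others. These 3 were 5.06-fold, 4.68-fold and 2-fold above the median tumor, in that order. The fast troponins, which carry the calcium signal to actin, gave similar values. Tnnt3, the fast troponin T that binds tropomyosin, was -2.42 in MSU_122a, -2.96 in MSU_26 and -3.53 in MSU_163, and the next tumor was MSU_58 at -3.62. Another Tnnt3 probe that passed the filter had an SD of 0.9 over 24 arrays, against 0.618 for the probe used. Tnnc2, the fast calcium sensor, was -2.42 in MSU_26 and -2.65 in MSU_122a, followed by MSU_58 at -3.21. Tnni2, the fast inhibitory subunit, was -3.14 in MSU_26 and -3.28 in MSU_122a, with MSU_59a next at -3.86 and MSU_163 at -4.69, over 20 arrays. The slow troponins were among the least variable members. Tnnt1 had an SD of 0.421 and Tnni1 of 0.462, below all members but Ldb3 at 0.372. The low spread of Ldb3 held for the probe used. Another Ldb3 probe that passed the filter had an SD of 0.798 and correlated with the first at r = 0.358 over 21 arrays. Tnnt1 ran from -5.19 in MSU_768 to -3.56 in MSU_122a, and Tnni1 was highest in MSU_163, at -3.13. Tnnc1, the calcium sensor of slow and cardiac muscle, was highest in MSU_84 at -3.03 and MSU_67 at -3.40 and lowest in MSU_97 at -5.34.

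Tpm2, beta-tropomyosin, did not follow this order. It was highest in MSU_122a at 0.49, but then came MSU_45 at 0.15 and MSU_58 at -0.04, and MSU_163 and MSU_26 stood at -1.87 and -2.21, close to the median over tumors. Smooth muscle and myoepithelial cells also make beta-tropomyosin. Its correlation with the average of the other members was 0.468 over 24 arrays.

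Genes of the Z-disc and of calcium handling often had the same 3 tumors on top. Each of the 5 calcium-handling genes had MSU_122a, MSU_26 and MSU_163 as its 3 highest tumors, as had 6 of 10 Z-disc and scaffold genes, against 4 of 11 thick filament, 3 of 9 thin filament and 3 of 5 energy genes. Actn3, the fast-fiber crosslinker of actin at the Z-disc, was -1.13 in MSU_122a, -2.04 in MSU_163 and -2.22 in MSU_26, and the next tumor was MSU_59a at -4.88. Pvalb was 0.40 in MSU_122a, 0.12 in MSU_26 and -0.005 in MSU_163, and from -5.61 in MSU_768 to -2.89 in MSU_86 in the others. For both genes no other tumor came within 2 log2 units of these 3. Atp2a1, the calcium pump of fast fibers, was -1.46 in MSU_122a, -2.32 in MSU_163 and -2.61 in MSU_26, and the next was MSU_84 at -3.66. Desmin, an intermediate filament of all muscle types that links Z-discs, was read by 10 spots per array. The median SD of these spots within an array was 0.11, for log2 ratios before normalization. Between arrays the SD was 0.724, for normalized values. Des was -2.84 in MSU_122a and -2.98 in MSU_26, and then -3.62 in MSU_84 and -4.24 in MSU_67, both above MSU_163 at -4.36.

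In energy metabolism, Ckm, the creatine kinase that buffers ATP in muscle, was -2.86 in MSU_122a, -3.22 in MSU_26 and -4.13 in MSU_163, and from -7.13 in MSU_97 to -4.69 in MSU_84 in the others. Pygm, the muscle glycogen phosphorylase, was highest in MSU_122a at -1.83 and MSU_26 at -2.10, and its next tumor was MSU_59b at -2.42. Mb, the oxygen store of oxidative fibers, was ordered differently, with MSU_58 highest at 0.08, then MSU_122a at -0.36, MSU_34 at -0.57 and MSU_59a at -0.63.

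The fast and slow members could be set against each other within each tumor, using the median over members of the log2 ratio minus each gene's own median. In MSU_122a this median was 2.21 for the 15 fast members, 2.13 for the 18 members of both fiber types and 0.76 for the 7 slow members. In MSU_26 the values were 2.15, 1.94 and 0.40, and in MSU_163 they were 1.34, 1.001 and -0.22. The fast members were therefore further from their usual level than the slow ones in all 3 tumors. In the lowest tumors the gap was smaller: in MSU_768 the fast, shared and slow medians were -0.89, -0.67 and -0.87, and in MSU_97 they were -1.08, -1.07 and -0.77. No slow member had these 3 tumors as its 3 highest, whereas 10 of 15 fast and 11 of 18 shared members had. The slow members also varied least over all tumors, 6 of 7 having an SD of 0.644 or less, and whether their probes respond to the same step in RNA was not tested.

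**Figure D3:**
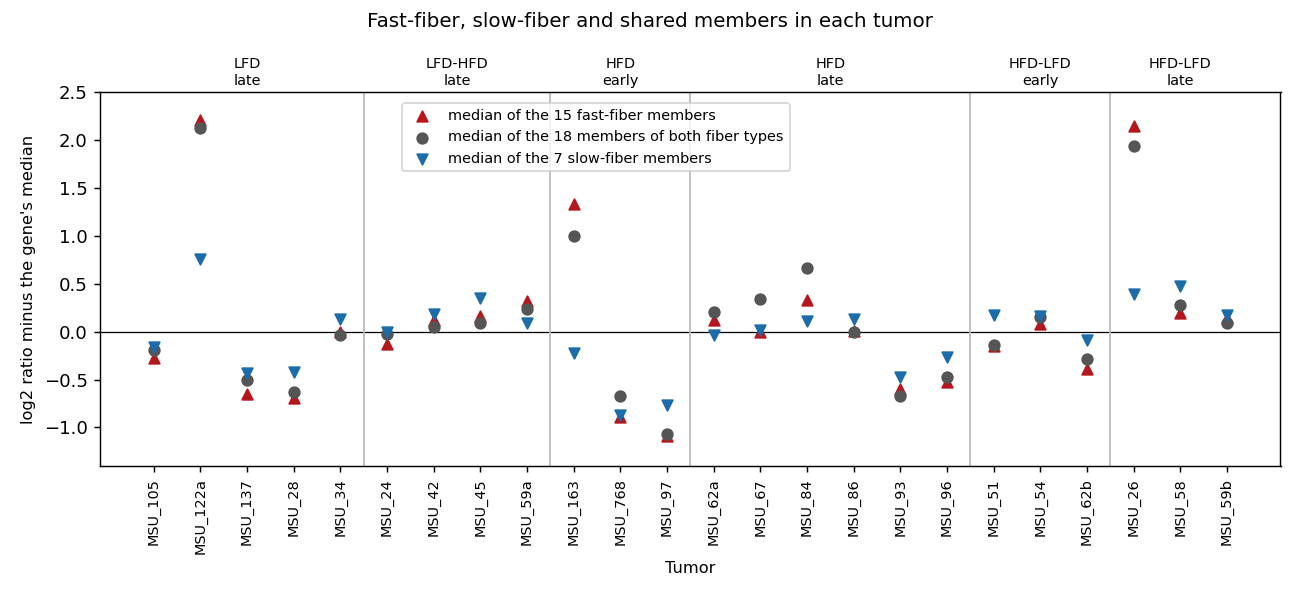
Median over the 15 fast, 18 shared and 7 slow members of the log2 ratio minus the gene's own median (vertical axis), for each of 24 tumors (horizontal axis). The fast and shared medians reach 2.21 and 2.13 in MSU_122a, where the slow median is 0.76, and all 3 are below 0 in MSU_768 and MSU_97.

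Members varied together across tumors. Over 24 arrays the median Pearson correlation of the 780 pairs of members was 0.737, with a range from 0.034 to 0.983, and 443 pairs were above 0.7. With MSU_122a, MSU_26 and MSU_163 left out it was 0.595 over 21 arrays, from -0.36 to 0.968, with 239 pairs above 0.7. All pairs share libraries, slides and the same reference RNA, so these correlations are descriptions. Outside the set, the 12 genes whose profile was most like the average of the members were Cmya5 (r = 0.965), Ckmt2 (0.957), Myf6 (0.95), Myh8 (0.948), Trdn (0.946), Lmod3 (0.94), Csrp3 (0.928), Tmem38a (0.928), Rpl3l (0.925), an unnamed probe (0.924), Pde4dip (0.923) and Apobec2 (0.916). Several are well-known muscle genes: Ckmt2 is the mitochondrial creatine kinase of striated muscle, Trdn anchors calsequestrin at the calcium store, Lmod3 builds thin filaments and Csrp3 is a Z-disc protein.

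Other marker lists showed which cell programs moved with the members. Of 49 tested genes in a list of further striated muscle genes, 27 correlated with the members' average above 0.7, and 31 had their highest value in MSU_122a, MSU_26 or MSU_163. The list's median offset from each gene's own median was 0.82 in MSU_122a, 1.14 in MSU_26 and 0.09 in MSU_163. Of 15 myogenic regulators, the factors and fusion genes that build new muscle, Myf6 alone exceeded 0.7, at 0.95. Myf6 is the regulator that mature fibers keep. Myod1 and Myog, which act in activated and differentiating muscle precursors, had r = -0.114 and 0.43. Of 15 smooth muscle and myoepithelial genes Tpm1 alone exceeded 0.7, at 0.727, and 4 were highest in 1 of the 3 tumors. No cardiac gene of 8 and no adipocyte gene of 14 exceeded 0.7.

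The mean profile of each list was also compared with the members. Its correlation with the members' average over 24 arrays was 0.938 for further striated muscle genes, 0.654 for myogenic regulators, 0.45 for cardiac muscle, 0.44 for endothelium, 0.332 for smooth muscle and myoepithelium, 0.31 for luminal epithelium, 0.211 for adipocytes, 0.086 for peripheral nerve, 0.074 for fibroblasts, -0.098 for macrophages, -0.259 for squamous differentiation and -0.282 for proliferation. The 3 high tumors did not share their other tissue markers. The adipocyte list stood at 0.46 in MSU_122a, -0.77 in MSU_26 and -1.16 in MSU_163, and its highest tumor was MSU_45 at 3.49, whose average over members was 0.026. The smooth muscle and myoepithelial list stood at 1.32 in MSU_122a, -0.56 in MSU_26 and -0.07 in MSU_163. At the other end, MSU_768 and MSU_97, the lowest tumors for the members, had squamous medians of 2.12 and 2.80 and luminal medians of -1.31 and -1.15. High squamous medians were found in other tumors too. MSU_86 (squamous 5.58, luminal -4.23) and MSU_59b (3.05 and -0.29) had averages over members of -0.122 and -0.004. MSU_51 (2.38 and -1.47), MSU_62b (1.81 and -0.63) and MSU_137 (2.39 and 0.59) had lower averages, of -0.342, -0.503 and -0.713.

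Promoters were available from RefSeq for 32 of the 40 members (build GRCm38.p6), and Actn3, Tnni2, Tnnt3, Neb, Tcap, Myoz1, Myot and Mylk2 were not in that table. The 250 bases before the start of Acta1, of the 3 neighboring fast myosin heavy chain genes on chromosome 11, and of Tnnc1 are shown. The first 4, like most members, lay above their medians in MSU_122a, MSU_26 and MSU_163. Tnnc1, like Mb, was called in the comparison of early and late tumors given below. Capitals mark matches to the CArG box (CC, 6 bases of A or T, GG), the letters bound by serum response factor, and to the MEF2 motif.
Acta1, chr8:123894776-123895025, minus strand: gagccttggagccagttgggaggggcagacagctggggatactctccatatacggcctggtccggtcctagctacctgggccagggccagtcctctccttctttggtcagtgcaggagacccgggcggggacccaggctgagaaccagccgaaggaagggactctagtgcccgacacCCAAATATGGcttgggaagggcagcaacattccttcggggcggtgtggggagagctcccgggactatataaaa
Myh1, chr11:67199852-67200101, plus strand: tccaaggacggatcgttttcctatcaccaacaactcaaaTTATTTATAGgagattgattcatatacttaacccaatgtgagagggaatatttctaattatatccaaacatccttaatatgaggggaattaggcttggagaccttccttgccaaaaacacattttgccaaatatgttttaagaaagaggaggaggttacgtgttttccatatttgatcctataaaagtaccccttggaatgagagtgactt
Myh2, chr11:67170777-67171026, plus strand: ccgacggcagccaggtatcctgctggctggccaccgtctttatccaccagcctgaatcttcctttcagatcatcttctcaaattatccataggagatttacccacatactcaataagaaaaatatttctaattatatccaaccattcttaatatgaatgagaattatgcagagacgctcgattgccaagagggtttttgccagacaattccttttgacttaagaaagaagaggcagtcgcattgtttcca
Myh4, chr11:67237562-67237811, plus strand: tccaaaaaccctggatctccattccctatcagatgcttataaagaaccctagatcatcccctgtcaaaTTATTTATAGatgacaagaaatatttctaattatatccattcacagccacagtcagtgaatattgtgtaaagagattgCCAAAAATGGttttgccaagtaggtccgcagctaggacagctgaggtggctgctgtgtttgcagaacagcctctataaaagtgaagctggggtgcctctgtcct
Tnnc1, chr14:31208062-31208311, plus strand: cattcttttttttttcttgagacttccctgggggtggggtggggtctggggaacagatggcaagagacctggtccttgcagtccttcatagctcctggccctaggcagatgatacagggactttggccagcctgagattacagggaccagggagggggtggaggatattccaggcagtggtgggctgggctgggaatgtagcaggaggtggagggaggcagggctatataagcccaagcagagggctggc
A CArG box was found on either strand for 4 of 32 member genes (12.5%), against 1.62% of 27025 genes with windows of the same length, and a MEF2 match for 6 (18.8%) against 3.42%. A gene was counted if any of its promoters held a match. The E-box CANNTG, the letters of the MyoD family, was in 27 (84.4%) against 69.3%, the letters CATTCC in 10 (31.2%) against 14.4%, and TATAAA in 6 (18.8%) against 14.3%. On the other strand TATAAA overlaps the MEF2 match in Myh1 and Myh4. A match describes letters in this window and not a bound site. Myh4 held both a CArG box and a MEF2 match, Myh1 a MEF2 match, Acta1 a CArG box, and Myh2 and Tnnc1 neither, so the windows of the 3 fast heavy chains differed in these letters. All 3 heavy chains lay above their medians in MSU_122a, MSU_26 and MSU_163. A link between these letters and the values by tumor was not tested.

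Early and late tumors were compared to ask whether the program differed with the time of onset. Most members were somewhat lower in early tumors, and 2 of 40, Mb and Tnnc1, fell by the test, while none rose. Of all 20938 genes 16.7% were called in this comparison by limma at an adjusted p under 0.05, with 10.4% lower and 6.37% higher, so the members' share was below that of genes at large. Mb fell by 1.51 on the log2 scale in early tumors (SE 0.49, adjusted p = 0.0365 by limma). The 6 early tumors ran from -4.53 to -1.60 with a median of -3.44, and the 18 late tumors from -3.90 to 0.08 with a median of -1.86. The groups overlapped: MSU_163 was high for an early tumor, the next being MSU_62b at -3.37, and the late tumors MSU_86, MSU_28 and MSU_93 lay below that value. Tnnc1 fell by 0.61 (SE 0.192, adjusted p = 0.0312 by limma), from -4.14 ± 0.444 in 18 late tumors to -4.76 ± 0.312 (SD) in 6 early tumors. Its early tumors ran from -5.34 to -4.41 with a median of -4.71, and its late tumors from -4.77 to -3.03 with a median of -4.18, again with overlap.

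**Figure D4:**
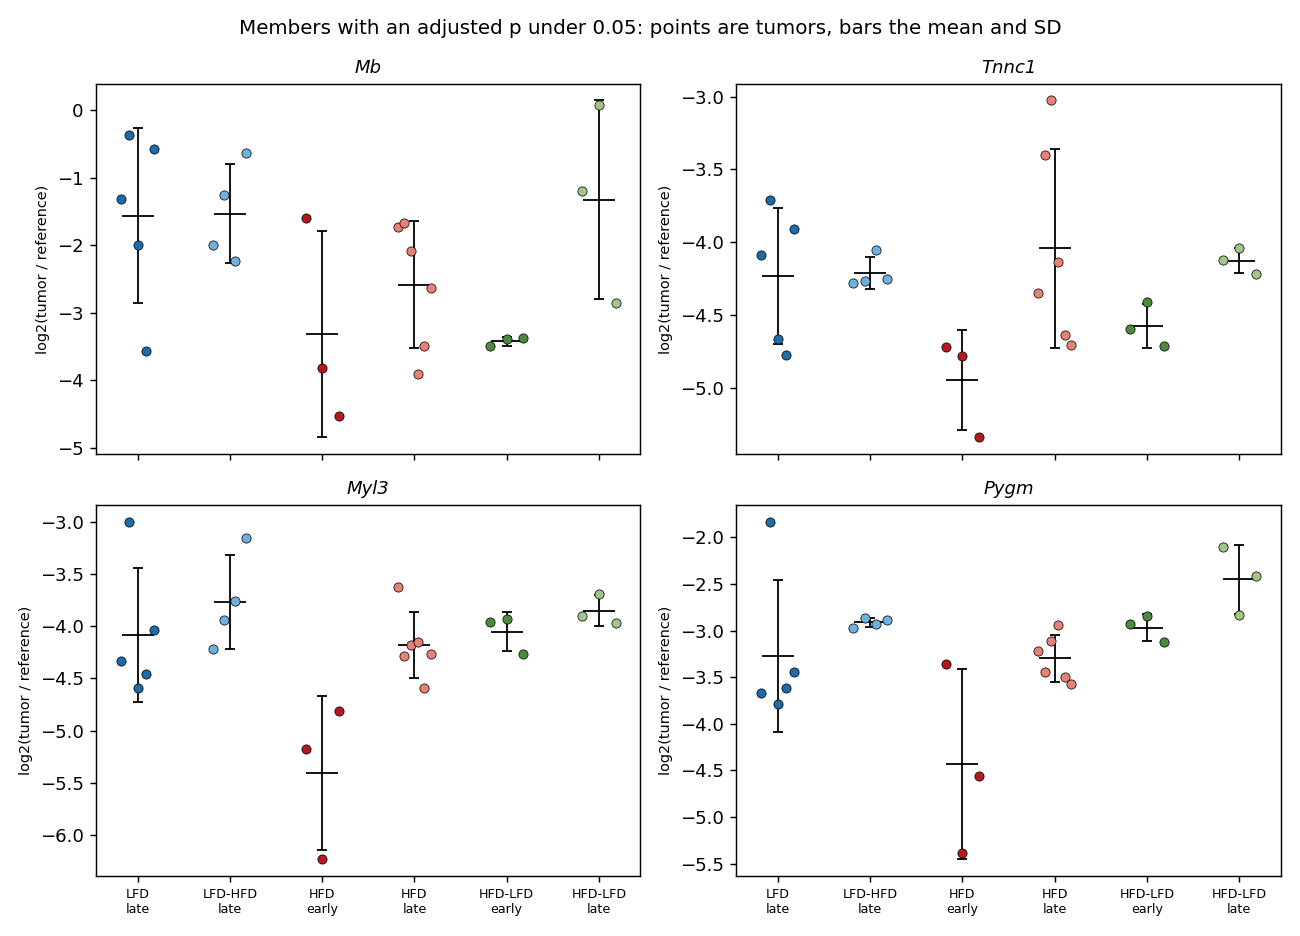
Log2 ratio of tumor over reference (vertical axis) for Mb, Tnnc1, Myl3 and Pygm in each of 24 tumors (points) by diet and onset group, with the group mean and SD. The 3 early HFD tumors lie below all late HFD tumors for Tnnc1 and Myl3, and the 3 early HFD-LFD tumors lie between -3.49 and -3.37 for Mb.

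Both calls depended on how the arrays were scaled and grouped. With arrays scaled by their median alone, Tnnc1 differed by -0.23 (adjusted p = 0.331 by limma) and Mb by -1.15 (adjusted p = 0.087 by limma). With the tumor channel alone the adjusted p by limma was 0.0637 for Tnnc1 and 0.0828 for Mb. With the slide as a random block the adjusted p by limma was 0.115 for Mb and 0.0974 for Tnnc1, at differences of -1.49 and -0.61, and with the scan session as a block it was 0.0138 and 0.00479. All 6 early tumors lay on 2 of the 7 slides. Within the first scan session the adjusted p was 0.174 for Mb (-1.61) and 0.0628 for Tnnc1 (-1.03), and within the second, with 3 tumors a side, 0.0446 (-2.30) and 0.0437 (-0.50). No member was called without MSU_768, without MSU_97 or without MSU_62b, and 5 were called without MSU_137. At an unadjusted p under 0.05, 8 members were called, a share below the 32.9% of all genes. Of 40 members 37 had a lower mean in early tumors, with a median difference of -0.47 (and -0.10 with arrays scaled by their median alone, which put the median of all genes at 0.21) and a range from -1.51 for Mb to 0.65 for Myh4, where 57.3% of all genes were lower and their median was -0.06. No member separated every early tumor from every late tumor. This share was 0.449% of all genes for early below late and 0.201% for early above late. Most members had wide errors here, with a median SE of 0.378, and the 3 high tumors fall on both sides. Acta1 differed by -0.48 (SE 0.387), Ckm by -0.40 (SE 0.382), Pvalb by -0.25 (SE 0.644) and Myh4 by 0.65 (SE 1.08), and none of these passed. Without MSU_163, Myh4 was instead -0.35.

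Within the HFD group, which holds both onsets on the same diet throughout, 2 of 40 members fell in early tumors, Myl3 and Pygm, against 12.3% of all genes called, 6.92% lower and 5.41% higher. Myl3, the slow essential light chain, was -5.18, -6.23 and -4.81 in the early tumors MSU_163, MSU_768 and MSU_97. In the 6 late tumors it ran from -4.59 to -3.63 with a median of -4.22, so the groups did not overlap, and it fell by 1.22 (SE 0.317, adjusted p = 0.0173 by limma). Pygm was -3.36, -5.38 and -4.56 in the same early tumors and from -3.58 to -2.94 in the late ones, with overlap in MSU_163, and fell by 1.13 (SE 0.367, adjusted p = 0.0477 by limma). Both calls were lost with the slide as a random block, under which 0 members passed. The 3 early HFD tumors share a slide with no late tumor. Without MSU_768 no member was called, and Myl3 was called without any other single tumor, whereas Pygm was called in 5 of the 24 fits that left out 1 tumor. Ldb3, Myl3 and Tnnc1 separated all early from all late HFD tumors, 3 of 40 members against 10.6% of all genes, and no member separated them in the other direction, against 7.85%. At an unadjusted p under 0.05 there were 8 members, against 29.2% of all genes. The differences ran from -1.70 for Myh2 to 1.997 for Myh4, and 30 of 40 were below 0, against 58.4% of all genes. The members' median was -0.42 against -0.09 for all genes.

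Within the HFD-LFD group no member passed, at 0.707% of all genes called by limma (0.42% higher and 0.287% lower), and 2 members, Mylk2 and Mb, were under an unadjusted p of 0.05, against 14.7% of all genes. The means of 40 of 40 members were lower in early tumors, as were those of 56% of all genes. The members' median difference was -0.95 against -0.06 for all genes, with a range from -2.47 for Myh1 to -0.14 for Myl2. Late MSU_26 enters each of these differences, and the members varied together, so they are not separate results. For 13 of the 33 members measured in all 6 tumors, every early tumor was below every late one, against 17.4% of all genes. These were Acta1, Atp2a1, Casq1, Mb, Mybpc1, Myh7, Mylk2, Pygm, Tnnc1, Tnnc2, Tnnt1, Tnnt3 and Tpm2. For no member was every early tumor above every late one, against 13.3%. The early HFD-LFD tumors shared a slide that held no late HFD-LFD tumor, so onset and slide cannot be told apart in this group. Mb was -3.49, -3.39 and -3.37 in MSU_51, MSU_54 and MSU_62b and -1.20, 0.08 and -2.85 in MSU_26, MSU_58 and MSU_59b. The difference of -2.09 (SE 0.84) had an adjusted p of 0.249 by limma, the smallest of the members. The early-late changes in the HFD and HFD-LFD groups did not differ for any member after adjustment, with 0% of all genes called. By unadjusted p, 1 member, Myl3, differed (-1.02, SE 0.484, adjusted p = 0.639 by limma), against 7.78% of all genes.

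Diet was compared between 9 HFD tumors, 3 of them early, and 5 LFD tumors, all late. No member and none of the 20938 genes passed (0% called by limma), and at an unadjusted p under 0.05 there were 0 members and 837 genes (4%). The mean was lower in HFD tumors for 38 of 40 members, with a median difference of -0.28 against -0.01 for all genes, of which 52.5% were lower. This direction rested on 1 LFD tumor: without MSU_122a the median over members was 0.22. Acta1 averaged -5.06 ± 1.25 (SD, n = 5) in LFD tumors, where MSU_122a stood at -2.86 and the others from -5.87 to -5.22, and its difference was -0.07 (SE 0.49). Among late tumors of the 4 diets, 0 members passed, at 1.61% of all genes called, and none was under an unadjusted p of 0.05, against 19.7% of all genes. The smallest p was that of Tnnt1, at an adjusted p of 0.316 by limma.

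**Figure D5:**
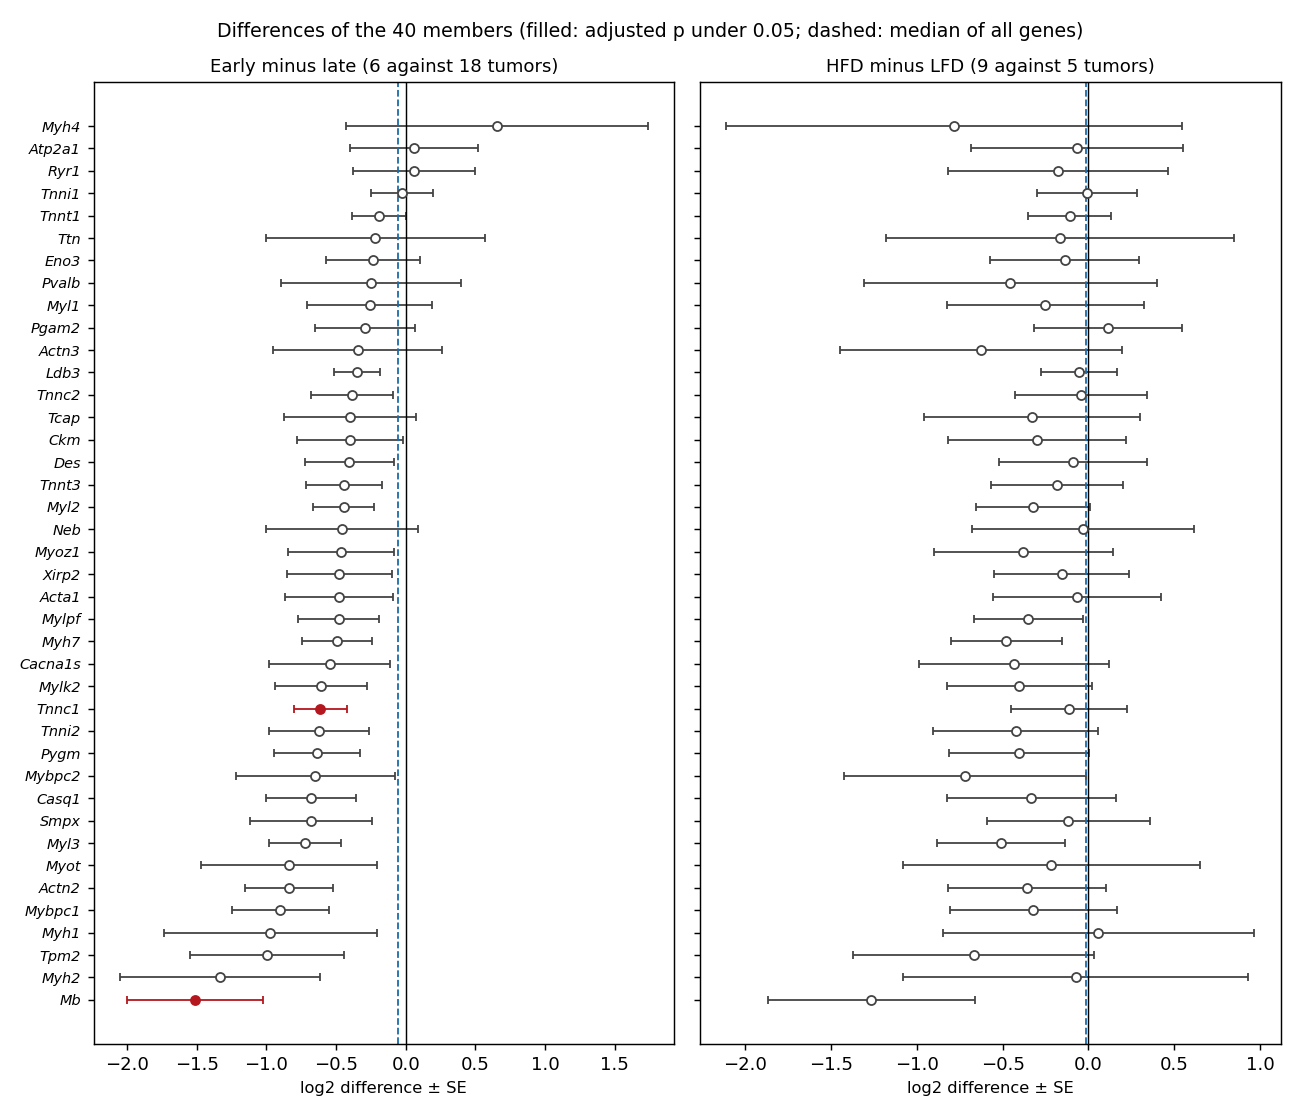
Log2 difference with its SE (horizontal axis) for the 40 members (vertical axis), early minus late tumors and HFD minus LFD tumors. Both panels order the members by their early minus late difference. Filled points have an adjusted p under 0.05, and a dashed line marks the median of all genes. Mb and Tnnc1 are the only filled points, 37 members lie below 0 for onset and 38 for diet.

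The other lists are set against the same background, in which 10.4% of all genes fell and 6.37% rose in early tumors. Of 49 further striated muscle genes 5 fell in early tumors, among them Chrna1, a subunit of the muscle acetylcholine receptor (-0.94, SE 0.222, adjusted p = 0.00789 by limma), Jph2, which holds the calcium store to the membrane (-0.47), and Nos1, the nitric oxide synthase found at the muscle membrane (-0.39). Of 15 myogenic regulators 3 fell, Six4, Ncam1 and the fusion gene Tmem8c, and of 8 cardiac genes 2 fell, Nppa and Myh6. Of 15 smooth muscle and myoepithelial genes 5 fell, with larger steps than any member: the smooth muscle myosin Myh11 fell by 2.89, Synpo2 by 2.25 and Tagln by 1.67 on the log2 scale. Genes of other lists were also called in this comparison. Of 8 fibroblast genes 1 fell, Dcn by 2.57, and 3 of the 8 had a higher mean in early tumors. Of 8 luminal genes 1 fell, the keratin Krt19 by 2.79. Of 9 proliferation genes 6 rose, among them Ccna2 by 1.23 and Top2a by 1.18. The part of these genes in the lower Mb and Tnnc1 values was not tested.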

How the data were processed

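Mammary tumor RNA was hybridized with reference RNA to 2-color Agilent 4 × 44K whole mouse genome arrays, 24 in all. The deposited scanner files, written by Agilent Feature Extraction 8.5.1.1 per the labels, hold a mean and a background intensity per spot and channel, with probe positions on mm9, and a log10 ratio that the authors' scanner software had background-subtracted and dye-normalized. Intensities were background-corrected here (normexp, offset 50) and loess-normalized within each array (span 0.3), in R 4.3.3 with limma 3.58.1. Outlier spots and spots in rows with lost Cy5 signal (bands of 10 rows more than 0.5 log2 units below the array) were set missing, and were not imputed. A probe had to exceed 10 in each channel in 80% or more of the arrays, as 27248 of 39429 did, and the brightest probe stood for each gene symbol, as the array names it. Differences were tested with limma over 20938 genes, with Benjamini-Hochberg adjustment and a threshold of 0.05. Early against late used all 24 arrays, HFD against LFD used those 14 arrays, and the other comparisons used 6 group means over all 24. The procedure was tested on simulated data. The members, the marker lists and the comparisons were chosen with earlier results of these data known. Values by tumor were given for a set list of 17 members, for the 5 most and 3 least variable, and for each member called, and for other lists at most 3 called genes each. Their symbols are the array's and can be old. Not every called gene of these lists is reported here. Arrays carry no read depth, so precision is set by the number of arrays. Alternatives were the scaling, background correction, imputation of missing values, filter, probe choice, slide, scan session, array weights and single arrays left out.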

Additional observations from a re-analysis of the deposited data

Results flagged for a closer look

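Within groups of 4 to 10 tumors, the gap between the highest or lowest tumor and its nearest neighbor, as a share of the group's range, was compared with Dixon's 95% critical value, and 18 of 87 groups of values exceeded it, where chance gives about 1 in 20. MSU_122a was the highest LFD tumor in 12 of them. Its share was 0.724 for the average over members, 0.783 for Acta1, 0.846 for Ckm, 0.786 for Myh1, 0.775 for Myh2, 0.851 for Tnnt3, 0.89 for Pvalb, 0.746 for Atp2a1, 0.888 for Des, 0.796 for Ttn, 0.736 for Ldb3 and 0.827 for Pygm. These genes were read in the same 5 tumors and are not independent of each other. MSU_163 was the highest early tumor for Atp2a1 (0.766).

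The low side held MSU_93 among late HFD tumors for Tnnt3 (0.756) and Tnnt1 (0.792), MSU_97 among early tumors for Tnnc2 (0.748), and MSU_24 among LFD-HFD tumors for Atp2a1 (0.898). MSU_45 was the highest LFD-HFD tumor for Tnnc1 (0.878), within a group whose values ran only from -4.28 to -4.05. No early-late change of a member differed between the HFD and HFD-LFD groups after adjustment by limma.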

How the results depend on the processing

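Only 24 arrays, single arrays per tumor and uneven groups limit these comparisons. The median early-late difference over members stayed below 0 under every alternative, from -0.711 without MSU_163 to -0.308 without MSU_97 when single tumors were left out. The median HFD minus LFD difference ran from -0.491 to 0.217 when single tumors were left out, and reversed (0.217) without MSU_122a. The number of members called for early against late was 2, and was 1 with the scanner software's log ratio, 0 with median centering, 0 with the tumor channel alone, 0 with the slide as a random block, 0 with it as a fixed block (only 1 slide holds both onsets), 10 with the scan session as a block, 9 with array weights, 5 without slides 6 and 7, 1 within the first session and 8 by unadjusted p. With missing values imputed from the 10 nearest probes it was 3 (Actn2, Mb and Tnnc1), and with the mean of all probes of a gene 3 (Ldb3, Mb and Tnnc1). For early against late within HFD it was 2, and 1 with the dimmed rows kept, 1 with the scanner log ratio, 1 without background correction, 0 with median centering, 1 with the tumor channel alone, 1 with no filter, 0 with the slide block, 6 with the session block, 18 with array weights and 8 by unadjusted p. For both, leaving out single tumors gave 0 to 5. Within HFD-LFD it was 0, and 4 with array weights and 2 by unadjusted p. For the difference of these changes it was 0, and 1 by unadjusted p, and for diet among late tumors 0, and 1 with array weights. Leaving out single tumors gave 0 in these 3 and for HFD against LFD. The cause of these shifts was not tested.

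Counts over all genes also moved. For early against late 3506 genes were called, but 1455 and 72 with the slide as a random or fixed block, 6733 with array weights, 1532 within the first session, and 1904 to 4273 without single tumors. Within HFD the 2581 became 1537 with the dimmed rows kept, 1149 with the tumor channel alone, 225 with the slide block, 8372 with array weights and 924 to 3439 without single tumors. Within HFD-LFD the 148 became 55, 56, 7 and 2324 in that order, 230 with median centering, 424 with the session block, 447 without slides 6 and 7, and 9 to 244 without single tumors. For the difference of changes the 0 became 3 with the scanner log ratio, 550 with array weights and up to 19 without single tumors, and for late diets the 338 became 102, 81, 4 and 4617 in the same order as above, 572 with the session block and 117 to 1058 without single tumors.

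Some early-late differences that passed no test changed sign. With the dimmed rows kept Tnni2 was 0.602, Tnni1 0.372 and Ldb3 0.159. With the scanner log ratio Tnni1 was 0.093 and Atp2a1 -0.069. With median centering Tnni1 was 0.364, Tnnc2 0.095, Pvalb 0.121, Ttn 0.197, Ldb3 0.028 and Tnnt1 0.195. With the tumor channel alone Tnni1 was 0.251, Mylpf 0.001 and Ttn 0.331. With the session block Myh4 was -0.136 and Atp2a1 -0.277, and Atp2a1 was -0.384 with array weights and -0.4 without slides 6 and 7. With the fixed slide block Tnni1 was 0.09, Pvalb 0.068, Atp2a1 -0.104 and Ttn 0.605, and within the second session Myh4 was -1.69 and Atp2a1 -0.91. Leaving out single tumors gave -0.352 to 1.17 for Myh4, -0.267 to 0.111 for Tnni1, -0.918 to 0.202 for Pvalb, -0.345 to 0.237 for Atp2a1 and -0.944 to 0.129 for Ttn. No paired analysis was possible because the labels give no replicate numbers within groups, and the tumor numbers in them are shared by at most 1 tumor between any 2 groups.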
